A study of Mus musculus with 5 samples.

Results

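The genes described here are the heat shock protein and chaperone genes of the array, 69 of its 16087 gene symbols. They were chosen by the symbol in the platform's annotation: those that start with Hspa, Hspb, Hspd, Hspe, Hsph or Hsp90, or with Dnaja, Dnajb, Dnajc, Cct or Pdia and a digit. They comprise 9 Hsp70 genes (Hspa), 8 small heat shock protein genes (Hspb, counting Hspbap1, whose product binds Hspb1), 3 Hsp90 genes, the Hsp60 gene Hspd1, 7 genes of the cytosolic chaperonin CCT, 4 protein disulphide isomerase genes (Pdia) and 37 J-protein genes (4 Dnaja, 12 Dnajb and 21 Dnajc). Of these, 67 had 1 probe and 2 had 2 probes, of which the brighter was used.

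The 5 single-colour arrays measured RNA of male mouse embryonic stem (ES) cells of strain 129 and of cells made from them. All carry myr-Akt-Mer, an Akt kinase tethered to the membrane whose activity 4-hydroxytamoxifen (4OHT) switches on through an attached mutant estrogen receptor. Akt-spheres, PGC-like cells (PGC, primordial germ cell) induced and passaged on OP9 stromal cells with 1 µM 4OHT, gave 2 arrays, 1 each from lines 21 and 42. Line 21 also gave 1 array of ES cells with 1 µM 4OHT, 1 of ES-like cells reverted from its spheres on embryonic fibroblasts (reverted cells, with 4OHT given transiently) and 1 of ES cells without 4OHT. No ES cells of line 42 are among the samples used here, and among the spheres line and replicate cannot be told apart. The labels do not speak of repeated cultures, so each p-value covers the spread between these arrays alone, and the small number of arrays limits precision. Where spheres are tested against all ES-type arrays, that spread includes the differences between the ES-type conditions and between the sphere lines. It is therefore not the spread of replicates, and part of it may be technical.

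Chaperones bind proteins that are unfolded or not yet assembled. Hsp70 proteins grip short stretches of a chain in a cycle driven by ATP, J-proteins bring them their clients and start that cycle, small heat shock proteins hold unfolded chains without ATP, and the Hsp60 and CCT rings fold chains inside a closed chamber. Hsp90 completes the folding of kinases, Akt among them, and of steroid receptors, and it holds the estrogen receptor part of fusions such as Akt-Mer inactive until the ligand binds. Cytosolic and mitochondrial chaperone genes are induced by heat shock factors, and those of the endoplasmic reticulum (ER) by the unfolded protein response.

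The summed intensity of an array was 15213653 to 19321075, of which its 100 brightest probes took 29.9% to 32.5%, and 6.09% to 9.11% of probes held no value. The 10 ES cell markers summed to 11264 and 15536 in spheres of lines 21 and 42, against 91361 in ES cells with 4OHT, 89279 in reverted cells and 102643 in ES cells without 4OHT. Dppa5a was the largest part of the ES-type sums (1014 and 6732 in spheres, against 49687 to 58362). Nanog overlapped between the groups (5523 and 4003 in spheres, against 3839 to 5480). The 11 PGC markers summed to 8326 and 15089.7 in spheres, against 5079.9, 8528 and 6309.6 on the same 3 arrays. Dppa3 alone gave 9198 of the sum in line 42 spheres, against 223.1 in line 21 spheres. Ifitm3 and Alpl read lower in both spheres than on these 3 arrays, and Tfap2c, Nanos3, Prdm14 and Dnd1 higher. The 15 markers of feeder cells (OP9 stroma and fibroblasts) summed to 1309.8 and 661.8 in spheres, against 1377.6, 2829.7 and 1689.6, and none of them lacked a value on any array. Adipocyte markers, which OP9 cells can express, summed to 578.3 and 424.1 in spheres, against 111.3 to 311.8 on the other 3 arrays, and those of blood and endothelium to 167.9 and 270.0, against 189.2 to 452.6. Most of the sphere sums of adipocyte markers came from Fabp4 and Lpl. Fabp4 read 183.1 and 142.8 in spheres, against 4.63 to 6.07. Lpl read 324.8 and 207.8, against 52.71 to 233.4, with overlap. The other adipocyte markers read at most 32.37 in spheres. OP9 cells had been let to attach to a dish and left behind before spheres were analysed, per the labels' protocols, and the part of feeder cells in the results below was not tested.

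The 2 sphere arrays were first set against all 3 ES-type arrays, which shows what separates both sphere lines from every ES-like culture. Hspb1, the small heat shock protein known as Hsp25 in the mouse, fell 13.9-fold and was the only member that passed the test. Differences are in log2(intensity + 1) after centring of the arrays, and a call is a limma p, adjusted over all genes tested, under 0.05. Of 60 members bright enough to compare, limma thus called 1 lower and 0 higher (1.67%), against 2.41% of the 10608 genes tested (0.943% higher and 1.47% lower). At an unadjusted p under 0.05 stood 5 members, Dnajb3, Dnajb4 and Dnajc1 above 0 and Dnajb8 and Hspb1 below, against 18.9% of all genes (9.32% above 0 and 9.57% below). The Hsp70, Hsp90, Hsp60, CCT and Pdia genes thus held none by this measure either. The median log2 difference was -0.02 over the 60 members and 0.00 over all genes, and the median size of the difference, in either direction, was 0.30 and 0.35. In 13 members (21.7%) the sphere values lay all above or all below the ES-type values, against 37.5% of all genes. The 9 members that were not compared read under 30 on every array or held no value there: Cct6b, Dnaja4, Dnajb5, Dnajc5b, Dnajc6, Hspa12a, Hspa1l, Hspb3 and Hspb9.

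The 250 bases before the start site of Hspb1 are shown because this gene had the largest difference among the members, with those of Hspd1 for contrast. The sequences are RefSeq's for build GRCm38.p6, read 5′ to 3′ on the gene's strand, at chr5:135887669-135887918 (plus strand) for Hspb1 and chr1:55087933-55088182 (minus strand) for Hspd1. Capitals mark heat shock elements, the inverted GAA units that heat shock factors bind. In Hspb1 they are 2 matches of the 2-unit form, GAA and TTC with 2 bases between them, at positions -117 to -110 and -97 to -90 from the start site. In Hspd1 they are 2 overlapping matches of the 3-unit form, GAA, TTC and GAA with 2 bases between units, read on both strands, at -144 to -132 and -139 to -127, and a 2-unit match lies inside them.
Hspb1: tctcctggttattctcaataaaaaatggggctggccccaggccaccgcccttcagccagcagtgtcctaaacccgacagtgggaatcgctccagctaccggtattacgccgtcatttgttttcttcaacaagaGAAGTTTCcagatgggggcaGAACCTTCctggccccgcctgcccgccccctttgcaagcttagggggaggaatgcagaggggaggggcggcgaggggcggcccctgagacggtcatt
Hspd1: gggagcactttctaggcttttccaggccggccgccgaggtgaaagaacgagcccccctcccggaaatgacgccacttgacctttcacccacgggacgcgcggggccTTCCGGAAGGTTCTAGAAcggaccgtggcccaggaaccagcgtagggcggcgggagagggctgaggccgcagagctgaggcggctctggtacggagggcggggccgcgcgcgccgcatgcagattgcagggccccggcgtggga
Of 32851 start-site windows of this length, 6.69% hold the 2-unit form and 0.466% the 3-unit form on either strand. Members have 75 such windows, of which 9 hold the 2-unit form and 3 the 3-unit form. By gene, of the 57 members with a window, 8 hold the 2-unit form, Hspb1, Hspb6, Hspb3, Hspd1, Dnaja1 and Cct2 among them. The 3-unit form is held by 2, Hspd1 and Dnajb6. Dnajb6 was named after its match was seen. Of these 8 genes 6 were bright enough to compare. In spheres against ES-type arrays the log2 difference was -3.80 for Hspb1, -0.71 for Hspb6 and -0.38 for Hspd1, and it was -0.01 for Dnaja1, 0.14 for Cct2 and 0.15 for Dnajb6, each of these last within its SE. Hspb1 alone passed the test. Hspb1 and Hspb6 were the ones whose groups did not overlap, which was the case in 37.5% of all genes.

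Hspb1 read 789.7 in line 21 spheres and 3575 in line 42 spheres, against 29223 in ES cells with 4OHT, 18423 in reverted cells and 24009.7 in ES cells without 4OHT. Both spheres lay far below every ES-type array, and line 21 spheres were the lower of the pair by 4.36-fold. The log2 difference was -3.80 (SE 0.62, limma adjusted p = 0.0435). It was at least 2-fold in each of the 6 pairs of arrays, as in 2.64% of all genes on the lower side. The limma adjusted p became 0.138 when ES cells with 4OHT were left out, 0.0623 when reverted cells were and 0.18 when ES cells without 4OHT were, so each of these 3 omissions ended the call. Over 13 alternatives the adjusted p was 0.0171 to 0.18 and the log2 difference stayed between -4.86 and -2.74. In bulk samples, fewer cells of a type and less RNA per cell cannot be told apart.

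**Figure D1:**
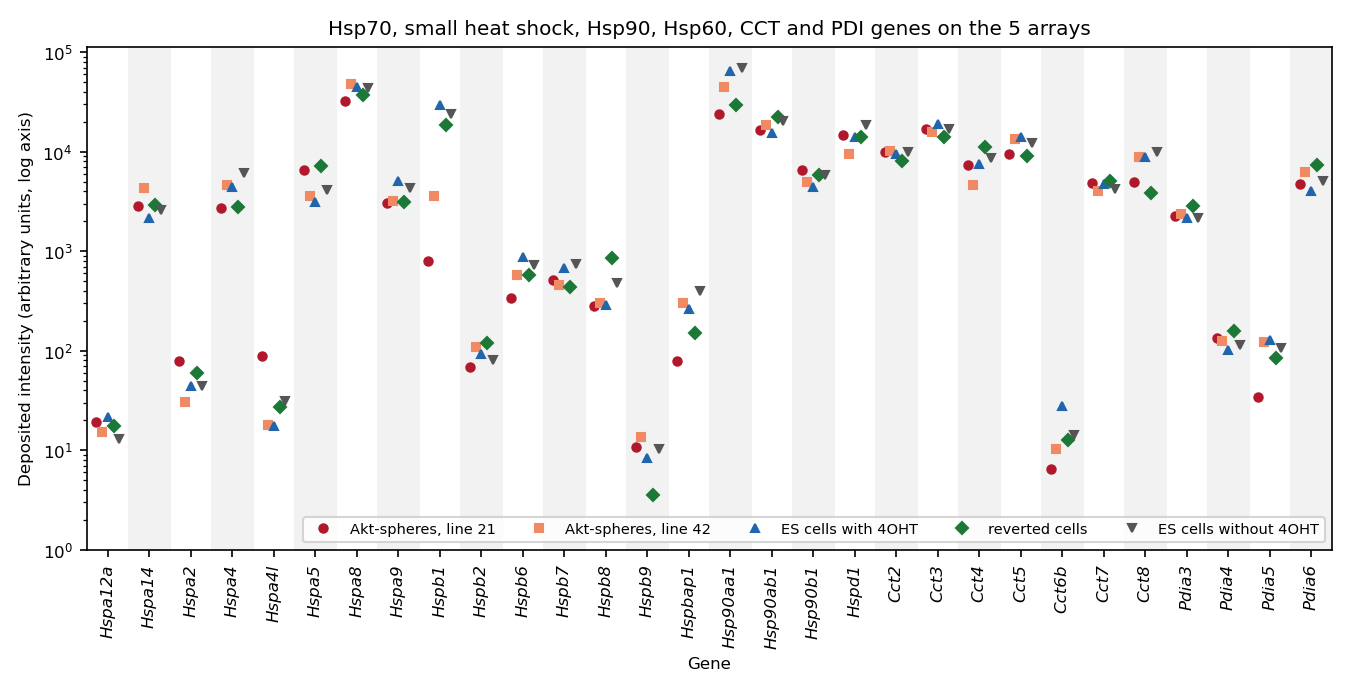
Deposited intensity (arbitrary units, log axis) of the Hsp70, small heat shock protein, Hsp90, Hsp60, CCT and disulphide isomerase genes with a value on all 5 arrays, 1 point per array, with the sphere lines left of the ES-type arrays. Hspb1 is the gene whose spheres (789.7 and 3575) stand farthest below the ES-type arrays (18423 to 29223).

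The other small heat shock protein genes read lower in spheres on average, but none passed the test. All 6 compared Hspb members had a log2 difference below 0 (median -0.71), also under quantile normalization and without centring, and 1 was called. Hspb6, a muscle-type small heat shock protein, read 336.6 and 574.5 in spheres of lines 21 and 42, against 882.2 in ES cells with 4OHT, 580.0 in reverted cells and 733.8 in ES cells without 4OHT (log2 -0.71, SE 0.32, limma adjusted p = 0.306). Its groups did not overlap, though line 42 spheres and reverted cells nearly met. Hspb8, which works with Bag3 in the removal of aggregates, read 280.1 and 304.8 in spheres, against 290.5 in ES cells with 4OHT, 861.7 in reverted cells and 478.2 in ES cells without 4OHT. Spheres and ES cells with 4OHT thus stood at nearly the same value, and reverted cells were highest. Hspbap1 read 78.22 and 301.6 in spheres, against 263.3, 149.8 and 402.6 on the same 3 arrays, with the groups overlapping. Hspb7, a heart-type member, had a log2 difference of -0.31, and Hspb2, its relative of skeletal muscle, one of -0.14. Hspb3 had a value on 1 array, that of ES cells with 4OHT (6.57). Cryab, the alpha B-crystallin gene, is a small heat shock protein gene outside the rule: it read 15.19 and 39.63 in spheres, against 97.26 in ES cells with 4OHT, 291.3 in reverted cells and 55.08 in ES cells without 4OHT (log2 -2.19, SE 0.74, limma adjusted p = 0.189). Its highest value was on the array of reverted cells, which also had the highest feeder marker sum. The largest parts of that sum were Tagln (664.9) and Acta2 (605.7). In ES cells with and without 4OHT, Tagln read 82.71 and 148.4 and Acta2 415.1 and 476.2. A feeder source of Cryab was not tested.

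Of the 7 compared Hsp70 genes none passed the test, and their log2 differences ran from -0.37 to 0.69 (median 0.02). Hspa8, the constitutive cytosolic Hsp70, read 32650 and 48496 in spheres, against 44567 in ES cells with 4OHT, 36934 in reverted cells and 44215.5 in ES cells without 4OHT. The sphere lines lay on either side of the ES-type arrays. Its second probe disagreed: it read 6722 and 8795 in spheres, against 16930, 9868 and 16391 on the same 3 arrays, with no overlap (log2 -0.86, against -0.07 for the probe used, both without centring). Hspa5, the Hsp70 of the ER lumen known as BiP, read 6598 and 3630.1 in spheres, against 3127 in ES cells with 4OHT, 7248 in reverted cells and 4119 in ES cells without 4OHT. Line 21 spheres and the reverted cells made from them were the high arrays. Hspa9, the mitochondrial Hsp70, read 3066 and 3231 in spheres, against 5069.8, 3117 and 4335 on the same 3 arrays (log2 -0.37, SE 0.28, limma adjusted p = 0.54). Hspa14, an Hsp70 bound to ribosomes, read 2851 and 4354 in spheres, against 2177, 2927 and 2598 (log2 0.47, SE 0.29, limma adjusted p = 0.44). On the centred scale its sphere values lay above all ES-type values, while as deposited the reverted cells lay above line 21 spheres. Hspa4, a nucleotide exchange factor of Hsp70, had a log2 difference of -0.24, and its testis-rich relative Hspa4l one of 0.69 that came from line 21 alone (88.62 and 18.11 in spheres, against 17.69 to 31.07). Hspa1a and Hspa1b, the classical heat-inducible genes, were not analysed here.

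Hsp90aa1, the stress-inducible cytosolic Hsp90, read 24251 and 44369 in spheres, against 64430 in ES cells with 4OHT, 29228 in reverted cells and 69043 in ES cells without 4OHT (log2 -0.62, SE 0.48, limma adjusted p = 0.555). Reverted cells lay between the sphere lines, so the groups overlapped. Hsp90ab1, the constitutive form, read 16462 and 18630.5 in spheres, against 15397, 22557 and 20277 on the same 3 arrays, and Hsp90b1 of the ER lumen (Grp94) read 6575 and 5012, against 4423, 5796 and 5899.9. For these genes the log2 differences were -0.13 and 0.11, each within its SE. Hspd1, the mitochondrial Hsp60, read 14688 and 9394 in spheres, against 13938, 13983 and 18559 (log2 -0.38, SE 0.32, limma adjusted p = 0.586).

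Subunits of CCT, which folds actin and tubulin, differed little. The 6 compared genes had a median log2 difference of -0.04 (range -0.63 to 0.14) and none passed the test. Under quantile normalization the median was 0.17, and 5 of 6 were then above 0 in place of 1. The lowest was Cct4, with 7303 and 4607 in spheres, against 7526 in ES cells with 4OHT, 11238 in reverted cells and 8602 in ES cells without 4OHT (SE 0.33, limma adjusted p = 0.364). Of 13 partners of the ring, prefoldin and tubulin cofactors among them, limma called 0, with 1 at an unadjusted p under 0.05, against 18.9% of all genes. Pfdn4, a prefoldin subunit, read 1294.7 and 421.1 in spheres, against 4103, 1253 and 2699 (log2 -1.70, SE 0.67, limma adjusted p = 0.252), with reverted cells below line 21 spheres.

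**Figure D2:**
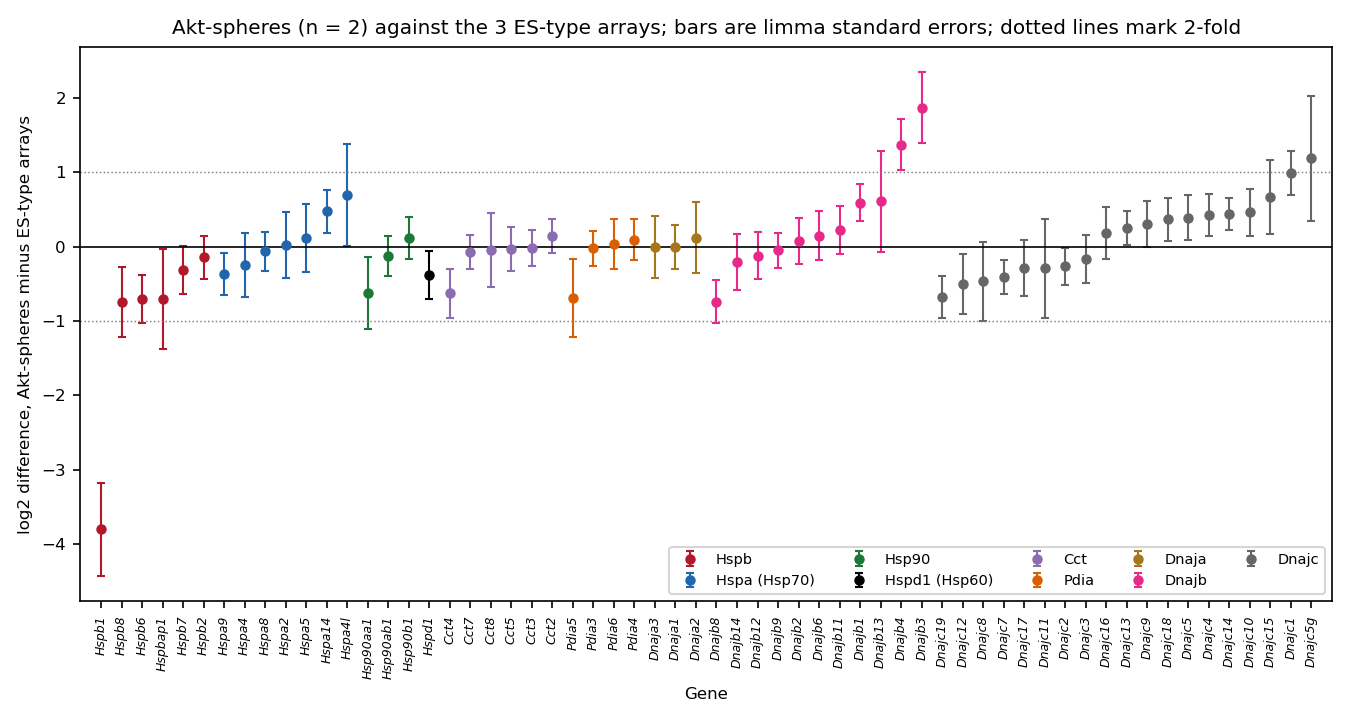
Log2 difference of Akt-spheres (n = 2) minus ES-type arrays (n = 3) for the 60 compared members, grouped by family and ordered by value; bars are limma standard errors and dotted lines mark 2-fold. Hspb1 (-3.80) lies apart at the bottom, Dnajb3 (1.87) and Dnajb4 (1.37) are the highest, and the CCT genes lie between -0.63 and 0.14.

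The members with the highest positive differences were J-proteins, although none of the 33 compared passed the test (median log2 difference 0.15). Dnajb3, a J-protein of spermatids, read 230.0 and 169.2 in spheres, against 61.42 in ES cells with 4OHT, 88.52 in reverted cells and 28.07 in ES cells without 4OHT (log2 1.87, SE 0.48, limma adjusted p = 0.115). Dnajb4, a heat-inducible cytosolic J-protein, read 370.9 and 250.7 in spheres, against 107.6, 167.5 and 90.42 on the same 3 arrays (log2 1.37, SE 0.35, limma adjusted p = 0.113). For both genes the groups did not overlap, and line 21 spheres were the highest array. Dnajc1, a J-protein of the ER membrane, read 282.6 and 265.1 in spheres, against 173.9, 157.6 and 96.02 (log2 0.99, SE 0.29, limma adjusted p = 0.155). Dnajb1, the main heat-inducible partner of Hsp70, read 1810.9 and 1354.8 in spheres, against 1029.2, 1153.8 and 959.7 (log2 0.59, SE 0.25, limma adjusted p = 0.28). These 4 genes separated the groups in the same direction. Among all 60 compared members 7 did so upward and 6 downward, together 21.7%, against 37.5% of all genes. In the other direction, Dnajb8, an inhibitor of protein aggregation, read 68.14 and 95.63 in spheres, against 124.5, 177.2 and 113.6 (log2 -0.74, SE 0.29, limma adjusted p = 0.249). Dnajc19, a partner of the mitochondrial import motor, read 2357 and 3003 in spheres, against 5210.1, 3349 and 4470.3 (log2 -0.68, SE 0.28, limma adjusted p = 0.269). Dnajc5g, a testis-type relative of the synaptic cysteine string protein, had a log2 difference of 1.18 that came from line 42 (6.61 and 46.48 in spheres, against 15.15, 6.61 and 3.81).

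By compartment, the 11 ER members had a median log2 difference of 0.09, with 7 above 0, and the 5 mitochondrial members one of -0.37, with 4 below 0 and Dnajc15 above. limma called 0 in both lists, with 1 ER member (Dnajc1) and 0 mitochondrial members at an unadjusted p under 0.05, against 18.9% of all genes. The 10 compared genes of the cytosolic stress-inducible list, Cryab among them, had a median of -0.04, with 1 called (Hspb1). Of these 10 genes 3 stood at an unadjusted limma p under 0.05 (Hspb1, Cryab and Dnajb4), against 18.9% of all genes. Of the 8 members in that list 5 were below 0, and 3 under quantile normalization. Pdia3, the isomerase that folds glycoproteins, read 2279 and 2363 in spheres, against 2172, 2829 and 2148 on the same 3 arrays, and Pdia6 read 4704 and 6273, against 4019, 7378 and 5090.4. Pdia4 had a log2 difference of 0.09, while Pdia5 was low in line 21 spheres only, with 34.54 and 121.2 in spheres, against 127.5, 85.14 and 107.6. Of 29 other compared genes of ER folding and the unfolded protein response, 1 passed, against 2.41% of all genes. At an unadjusted limma p under 0.05 stood 5 of the 29, against 18.9% of all genes. Ero1a (Ero1l in the platform's annotation), the oxidase that recharges the disulphide isomerases, read 931.2 and 901.6 in spheres, against 204.6, 200.5 and 199.7 (log2 2.18, SE 0.21, limma adjusted p = 0.0137). It rose 4.54-fold, with both spheres alike, and no isomerase among the members passed the test beside it. With ES cells without 4OHT left out, limma called 0 of all genes, so the call of Ero1a ended there. Of 21 compared cochaperones of Hsp70 and Hsp90, 3 genes of the heat shock factor list and 11 of mitochondrial folding, limma called 0. Those at an unadjusted limma p under 0.05 were 4, 1 and 0, against 18.9% of all genes. Bag2, a nucleotide exchange factor of Hsp70, read 253.0 and 213.9 in spheres, against 34.31 in ES cells with 4OHT, 120.6 in reverted cells and 34.54 in ES cells without 4OHT (log2 2.13, SE 0.58, limma adjusted p = 0.13). Hsf1, the main heat shock factor, read 235.1 and 241.6 in spheres, against 152.9, 257.2 and 145.9, and Hsf2 read 39.31 and 36.84, against 25.42, 22.64 and 26.47.

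Set against single ES-type arrays, a member was counted where both sphere lines were at least 2-fold apart the same way. Against ES cells with 4OHT, whose Akt is active without the sphere culture, 3 of 60 members were counted (Dnajb3 and Dnajb4 higher, Hspb1 lower), or 5% against 12.8% of 10424 genes (5.99% higher and 6.86% lower). Against reverted cells 4 members were counted, Dnajb13 higher and Dnajc12, Hspb1 and Hspb8 lower, or 6.67% against 10% of 10347 genes (4.21% higher and 5.81% lower). Against ES cells without 4OHT 4 members were counted, Dnajb3, Dnajb4 and Dnajc1 higher and Hspb1 lower, or 6.67% against 10.5% of 10300 genes (4.51% higher and 6% lower). A limma fit of all 4 groups, with 1 degree of freedom left, called 0 genes in each of these comparisons, with 1212, 917 and 963 genes at an unadjusted p under 0.05. Hspb1 was thus counted against all 3 arrays, 16.7-fold lower than ES cells with 4OHT, 10.8-fold lower than reverted cells and 15.0-fold lower than ES cells without 4OHT. These comparisons share the sphere arrays. Dnajc12 lost its place with a pseudocount of 8 and Dnajb13 with the 60th percentile as the filter, each of which left 3 members against reverted cells. Dnajb13, a sperm flagellum protein, read 22.86 and 31.22 in spheres, against 7.43 in reverted cells, and ES cells with 4OHT read 45.01. It passed the filter on brightness, set at the 40th percentile of an array (28.6 to 29.3), through line 42 spheres alone. Dnajb3 passed it in spheres but not in ES cells without 4OHT. Dnajc12, a cochaperone of aromatic amino acid hydroxylases, read 92.7 and 125.6 in spheres, against 256.9 in reverted cells.

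ES cells with 4OHT were set against ES cells without 4OHT, 1 array each and so with no replicate check. Activation of Akt, other effects of 4OHT and differences between single cultures cannot be told apart in this pair. Of 59 members, 1 was at least 2-fold apart (1.69%), against 4.95% of 9866 genes (2.55% higher and 2.39% lower). It was Dnajb13, at 45.01 in ES cells with 4OHT and 14.68 in ES cells without 4OHT. The value without 4OHT lies under the filter, so the gene was compared only through the array where it was high, and with the 60th percentile as the filter no member was counted. Of all genes counted 51.6% were higher, a share that became 66.8% under quantile normalization and 68.6% without centring, and these settings moved the median of all genes to 0.09 and 0.11, against -0.03. On the main scale 9 of 10 Hsp70 and Hsp90 genes were below 0, and 7 of 10 under either other scaling. None of these 10 genes reached 2-fold.

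Among the ER members 8 of 11 were below 0 with 4OHT (median log2 difference -0.28), and none of the 11 reached 2-fold. The count was 8 under quantile normalization and 7 without centring. The windows before the start sites of Hspa5, Hsp90b1, Pdia6 and Dnajc3 are shown because these are the members that hold the ER stress response element, which factors of the unfolded protein response bind with NF-Y. They lie in GRCm38.p6 at chr2:34771840-34772089 (plus strand) for Hspa5, chr10:86705445-86705694 (minus strand) for Hsp90b1, chr12:17266339-17266588 (plus strand) for Pdia6 and chr14:118937682-118937931 (plus strand) for Dnajc3. Capitals mark the element, CCAAT and CCACG with 9 bases between them, read on both strands.
Hspa5: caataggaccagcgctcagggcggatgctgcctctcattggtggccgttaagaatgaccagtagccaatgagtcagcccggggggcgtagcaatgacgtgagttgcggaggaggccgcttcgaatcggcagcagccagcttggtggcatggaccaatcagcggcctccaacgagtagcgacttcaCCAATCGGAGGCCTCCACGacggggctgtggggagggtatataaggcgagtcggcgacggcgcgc
Hsp90b1: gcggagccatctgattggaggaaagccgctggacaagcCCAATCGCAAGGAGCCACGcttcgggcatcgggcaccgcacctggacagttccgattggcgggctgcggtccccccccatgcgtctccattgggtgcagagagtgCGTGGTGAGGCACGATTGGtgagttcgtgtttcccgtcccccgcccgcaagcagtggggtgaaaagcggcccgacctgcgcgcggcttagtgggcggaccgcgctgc
Pdia6: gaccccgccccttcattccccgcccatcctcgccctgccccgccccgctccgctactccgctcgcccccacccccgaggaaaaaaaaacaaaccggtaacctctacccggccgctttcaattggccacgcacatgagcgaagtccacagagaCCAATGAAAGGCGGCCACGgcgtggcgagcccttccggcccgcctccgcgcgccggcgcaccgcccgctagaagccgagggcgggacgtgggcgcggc
Dnajc3: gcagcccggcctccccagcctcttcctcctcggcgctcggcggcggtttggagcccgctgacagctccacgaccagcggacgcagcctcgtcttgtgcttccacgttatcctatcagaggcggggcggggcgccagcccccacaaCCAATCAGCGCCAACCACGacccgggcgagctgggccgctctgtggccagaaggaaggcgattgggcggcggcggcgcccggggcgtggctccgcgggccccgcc
The element lies in 0.113% of all windows and in 4 of the 75 windows of members, which belong to 4 of the 57 members with a window. Hsp90b1 holds it on each strand. Hsp90b1 read 4423 in ES cells with 4OHT, against 5899.9 in ES cells without 4OHT (log2 -0.55). Hspa5 read 3127 with 4OHT, against 4119 without it (-0.53). Pdia6 read 4019 with 4OHT, against 5090.4 without it (-0.48), and Dnajc3, the inhibitor of eIF2 alpha kinases, 126.5 with 4OHT, against 151.9 without it (-0.40). All 4 were thus lower with 4OHT by less than 2-fold, under each of 8 settings (without centring between -0.42 and -0.26). Dnajc1 (log2 0.71) and Dnajb11, a BiP partner (0.34), lay on the other side.

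Of 29 other genes of ER folding and the unfolded protein response, 3 were at least 2-fold higher with 4OHT and 1 lower. Of all genes 2.55% were higher and 2.39% lower. Under quantile normalization and without centring 4 were higher, with Atf6 added. Atf6 read 40.69 with 4OHT, against 18.55 without it, which is under the filter. Ddit3, the stress factor CHOP, read 3073 with 4OHT, against 296.9 without it. Its activator Atf4 read 6745 with 4OHT, against 3027.9 without it, and Herpud1, of ER-associated degradation, 143.0 with 4OHT, against 54.94 without it. Derl3, of the same pathway, read 109.7 with 4OHT, against 221.9 without it. On this pair of arrays, high Ddit3 and Atf4 thus stood beside values of Hspa5, Hsp90b1, Pdia6 and Dnajc3 that were below those without 4OHT. In the spheres, which were also kept with 4OHT, Ddit3 read 303.2 and 257.5.

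**Figure D3:**
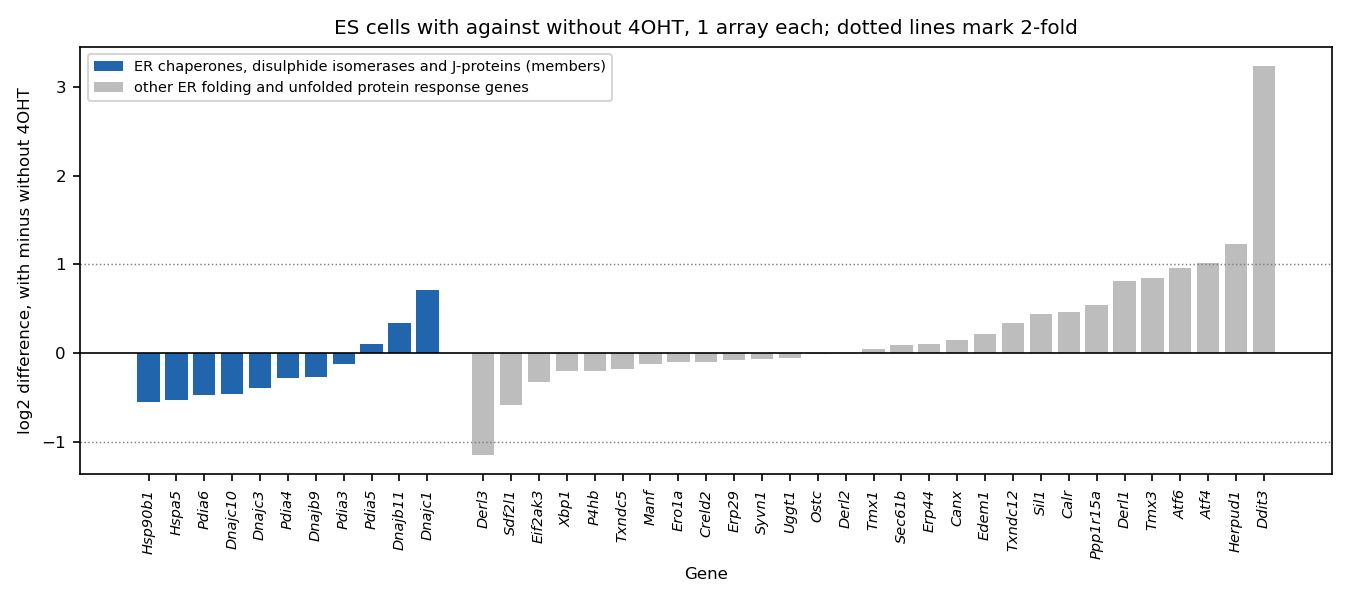
Log2 difference of ES cells with minus without 4OHT (1 array each) for the 11 ER members in blue and 29 other genes of ER folding and the unfolded protein response in grey; dotted lines mark 2-fold. The blue bars lie between -0.55 and 0.71, while Ddit3 reaches 3.23.

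Reverted cells were set against ES cells without 4OHT, which asks how far they return to the starting state, again with 1 array each. Of 58 members, 10 were at least 2-fold apart (17.2%), against 11.5% of 9955 genes, with 3 higher (5.17%, against 5.2%) and 7 lower (12.1%, against 6.34%). Quantile normalization left 7 members, 3 higher and 4 lower, and no centring 8, 3 higher and 5 lower, so each loss was on the lower side. Over all genes 518 were higher and 631 lower, a split that became 637 and 521 under quantile normalization and 636 and 531 without centring. These settings placed the median log2 difference of all genes at 0.11 and 0.10, against 0.00. Hsp90aa1 read 29228 in reverted cells, against 69043 in ES cells without 4OHT (log2 -1.34, and -0.97 under quantile normalization). Cct8, a CCT subunit, read 3890.3 in reverted cells, against 9869 in ES cells without 4OHT (log2 -1.44). Hspa4 read 2791 in reverted cells, against 6052 in ES cells without 4OHT (log2 -1.22). The lower side thus held an Hsp90, a chaperonin and an Hsp70 exchange factor, beside Hspbap1 (149.8 against 402.6) and 3 J-proteins. Dnajc11, of the mitochondrial membrane, read 287.2 in reverted cells, against 804.0 in ES cells without 4OHT. Dnajc8, of the spliceosome, read 2914 in reverted cells, against 5717 in ES cells without 4OHT, and Dnaja3, the mitochondrial J-protein Tid1, 116.8 against 229.1. Both lost the 2-fold mark under quantile normalization (log2 -0.90 and -0.998) and without centring. On the higher side, Dnaja2, a cytosolic partner of Hspa8, read 950.6 in reverted cells, against 375.1 in ES cells without 4OHT, Dnajb3 88.52 against 28.07, which is under the filter, and Dnajc12 256.9 against 116.3. Hspb1 was 1.4-fold lower than in ES cells without 4OHT (18423 against 24009.7).

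The Hsp90 and Hsp70 cochaperones held 4 genes at least 2-fold lower in reverted cells and 1 higher, of 21, against 6.34% of all genes lower and 5.2% higher. Stub1, the ubiquitin ligase CHIP, read 272.0 in reverted cells, against 1346.1 in ES cells without 4OHT. Fkbp4, an Hsp90 immunophilin, read 1386.9 in reverted cells, against 3962 in ES cells without 4OHT. Nudc, an Hsp90 cochaperone, read 4296 against 9744.5, and Ahsa1, which activates the ATPase of Hsp90, 2457 against 4832. Ahsa1 reached 2-fold on the centred scale only (log2 -1.07, against -0.92 under quantile normalization and -0.98 without centring), and 3 genes were lower under those settings. On the higher side was Bag2, with 120.6 in reverted cells, against 34.54 in ES cells without 4OHT. Feeder marker sums were 2829.7 in reverted cells and 1689.6 in ES cells without 4OHT.

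Line 42 spheres were set against line 21 spheres. Of 60 members, 10 were at least 2-fold apart (16.7%), against 15.7% of 9971 genes, 7 higher (11.7%, against 7.9%) and 3 lower (5%, against 7.8%). Hspb1 was 4.36-fold higher in line 42 spheres (3575, against 789.7 in line 21 spheres). Its binding partner Hspbap1 was higher too (301.6 in line 42, against 78.22 in line 21), as was Pdia5 (121.2 in line 42, against 34.54 in line 21). The other 4 on the higher side were J-proteins. Dnajc11 read 835.5 in line 42 spheres, against 267.7 in line 21 spheres. Dnajc8 read 5576 in line 42 spheres, against 2235 in line 21 spheres. Dnajb14, of the ER membrane, read 338.6 in line 42 spheres, against 161.4 in line 21 spheres, just past 2-fold (log2 1.01), and was no longer counted with a pseudocount of 8. Dnajc5g read 46.48 in line 42 spheres, against 6.61 in line 21 spheres, and it passed the filter through line 42 alone. The lower side held 3 genes. Hspa4l read 18.11 in line 42 spheres, against 88.62 in line 21 spheres, and passed the filter through line 21 alone. Dnajc15, an inner membrane J-protein of mitochondria, read 1235.3 in line 42 spheres, against 3325 in line 21 spheres. Hspa2, an Hsp70 of spermatocytes, read 30.41 in line 42 spheres, against 79.02 in line 21 spheres. With the 60th percentile as the filter 6 members were counted on the higher side, without Dnajc5g, and Dnajc15 alone on the lower.

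The last 2 comparisons share no array, and several members were low in line 21 spheres as well as in the reverted cells made from those spheres. Dnajc11, Dnajc8 and Hspbap1 were at least 2-fold lower in line 21 than in line 42 spheres and also at least 2-fold lower in reverted cells than in ES cells without 4OHT. They were 5% of the 60 members, against 2.19% of 10608 genes, and 0 members were higher in both, against 1.32% of genes. Dnajc8 was not among them under quantile normalization or without centring. With ES cells with 4OHT in place of those without it, the members were Dnajc11, Dnajc5g and Dnajc8, against 2.59% of genes. Dnajc5g passed the filter on brightness through line 42 spheres alone, so its values in reverted cells and in ES cells with 4OHT both lie under it. Dnajc11 read 267.7 in line 21 spheres and 287.2 in reverted cells, against 835.5 in line 42 spheres, 842.5 in ES cells with 4OHT and 804.0 in ES cells without 4OHT. The 3 other arrays of that gene thus lay close together, and line 21 spheres and reverted cells close together below them. Cct8 (5017 and 3890.3, against 8932, 8765 and 9869 in the same order), Hspa4 (2695 and 2791, against 4662, 4423 and 6052) and Hsp90aa1 had the same order without reaching 2-fold between the sphere lines. Other members had the opposite order, high in line 21 spheres and reverted cells. Dnaja2 (793.5 and 950.6, against 439.8, 455.0 and 375.1) and Hspa5 did not reach 2-fold between the sphere lines on the main scale. Hspa2 and Dnajc15 did, while their reverted cells lay above ES cells without 4OHT by less than 2-fold (log2 0.32 and 0.67). Over the 60 members, the difference of line 21 minus line 42 spheres and that of reverted cells minus ES cells without 4OHT had Pearson's r of 0.42 and Spearman's rho of 0.46. Over all 10608 genes the values were 0.31 and 0.32. These are correlations over genes, which do not count as independent replicates. Line 21 contributes an array to the first difference and both arrays to the second.

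**Figure D4:**
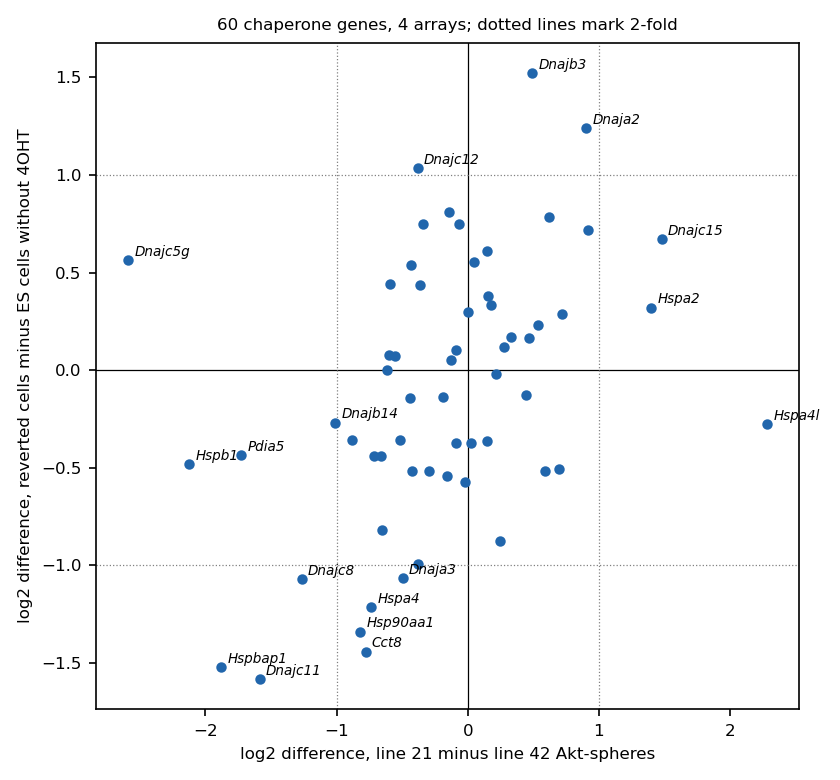
Log2 difference of line 21 minus line 42 spheres (horizontal) and of reverted cells minus ES cells without 4OHT (vertical) for the 60 compared members, 1 point per gene; dotted lines mark 2-fold. Dnajc11, Dnajc8 and Hspbap1 lie in the lower left field, where both differences are at least 2-fold below 0 (5% of members, against 2.19% of all genes), and the upper right field is empty (1.32% of all genes). Dnajc8 leaves the lower left field under quantile normalization.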

How the data were processed

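RNA of 5 samples was measured on single-colour arrays. Per the labels' protocols it was amplified to amino allyl RNA, and dye coupling followed the array maker. The authors' deposited intensity values are linear, with a median of 50 on each array, and their scanning, background correction and normalization are not stated in the sources at hand. Empty cells were not filled. Of 22871 probes, 16264 had 1 gene symbol, 0 several and 6607 none; 12239 of the 16087 symbols were current in RefSeq (GRCm38.p6), 3787 were matched through a synonym and 61 kept. Members were found by platform symbol (Hspa9a is given as Hspa9), and by current names 9 more genes would meet the rule.

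Values were taken to log2(value + 1), so folds understate the change of dim genes, and arrays were centred on their medians over the 18884 probes with a value on all of them. A gene was compared if it had a value on every array involved and reached the 40th percentile (28.6 to 29.3) of at least 1. Tests used limma 3.58.1 in R 4.3.3 (lmFit, eBayes) with Benjamini-Hochberg adjustment over all genes at 0.05, tested on simulated data; single arrays were compared by a 2-fold rule with no p. Alternatives were a pseudocount of 8, no filter, the 60th percentile, quantile normalization, no centring, the mean over probes, updated symbols, an eBayes trend and leaving out arrays. Members, lists and marker genes were chosen with earlier results of these data known.

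Members other than J-proteins may all be named. J-proteins were named if they passed limma, were among the 12 largest differences of a comparison or the 3 brightest of their class, or belong to the compartment lists; partner genes if called or 2-fold apart, at most 6 per list, with Hsf1 and Hsf2. The lists were ER, mitochondrial, cytosolic stress-inducible and chaperonin genes and the partners of each.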

Additional observations from a re-analysis of the deposited data

Results flagged for a closer look

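Of 3 members, the spheres of the 2 lines lay on opposite sides of all 3 ES-type arrays on the centred log2 scale. That these differences depart from the spread between cultures was not tested, since each line gave 1 sphere array. Hspa2, the Hsp70 of spermatocytes, differed by -1.40 on the log2 scale in line 42 minus line 21 spheres (30.41 and 79.02, against 44.03 to 59.23 on ES-type arrays). Hspa8, the constitutive Hsp70, differed by 0.52 (48496 and 32650, against 36934 to 44567), and its second probe lay below the ES-type arrays in both lines. Dnajb6, an inhibitor of protein aggregation, differed by 0.88 (170.0 and 88.52, against 104.4 to 124.9), and was named after its values were seen.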

How the results depend on the processing

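Hspb1 kept its direction under all 13 alternatives tried in spheres against ES-type arrays and passed limma under 10 of them. Leaving out 1 array gave log2 differences of -4.86 to -2.74, with 0 to 1 members called and 0 to 284 genes in all. The lowest count came from leaving out the ES cells without 4OHT, the highest from leaving out the reverted cells. No named member reversed a called direction. With updated symbols the count of members called was 2 in spheres against ES-type arrays (Dnajc21, listed as 4930461P20Rik, joined Hspb1 at 968.7 and 794.7 in spheres, against 2339.6 to 3307 on ES-type arrays), 5 against ES cells with 4OHT, 7 against reverted cells and 2 in ES cells with against without 4OHT. In the last comparison no filter on dim probes gave 753 genes and 4 members, the 60th percentile 313 genes and 0 members, and quantile normalization and no centring 2 members each, Dnajb13 and Dnajb3, against 488 genes and 1 member. With 1 sphere line in place of both, the 2-fold rule counted 2136 to 2707 genes and 5 to 16 members against ES cells with 4OHT, 1708 to 2289 genes and 8 to 10 members against reverted cells, and 1893 to 2270 genes and 7 to 15 members against ES cells without 4OHT, since it then asks for 1 line only. No paired analysis was possible because the groups other than spheres have 1 array each. The number of arrays and the dimness of 9 members limit what can be compared.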
